A study of Mus musculus with 12 samples.

Results

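Chromatin accessibility was examined at 10 genes that encode the subunits of the transcription factor NF-kappaB (Nfkb1, Nfkb2, Rel, Rela and Relb) and proteins that restrain or redirect it (Nfkbia, Nfkbie, Nfkbiz, Bcl3 and Tnfaip3). Their peaks were taken as every accessible region that the deposited annotation assigned to one of these genes, the gene with the nearest transcription start site. These were 104 of 60288 peaks in untreated mice and 100 of 54953 peaks in lipopolysaccharide (LPS)-treated mice. Nfkbiz carried the most, with 24 and 22 peaks, and Relb 3 in both sets. The data are ATAC-seq profiles, in which a transposase tags open DNA, of brain macrophages sorted from wild-type C57BL/6J mice that were transplanted with donor bone marrow after an irradiation of 950 cGy. The 4 groups held 3 libraries each. CD45.1 cells are the engrafted, donor-derived macrophages and CD45.2 cells the host microglia, and both were sorted from the same brains. Mice are numbered by the number in the library titles. Mice 4, 5 and 6 were untreated, whereas mice 1, 2 and 3 received 2.5 mg/kg LPS, a bacterial endotoxin, 12 h before they were killed. Cells were isolated 9 months after transplantation by the study's text, whereas the labels name 3.5 or 9 months without saying which mouse had which. Each group came from 3 individual mice, so that the spread includes that between animals. All animals, the untreated ones included, had been irradiated, so none of the host microglia came from an unmanipulated brain.

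NF-kappaB acts as dimers of Rel-family subunits. Rela and Rel carry activation domains, and the products of Nfkb1 and Nfkb2 are precursors that are processed to DNA-binding partners. In resting cells the dimers are held in the cytoplasm by inhibitors such as the products of Nfkbia and Nfkbie. LPS, or the cytokines it releases, leads to degradation of the inhibitors and lets the dimers enter the nucleus. Relb with the processed Nfkb2 product forms the dimer of the slower, non-canonical branch. Nfkbiz and Bcl3 encode nuclear relatives of the inhibitors that bind dimers on DNA and alter which genes they switch on. Tnfaip3 encodes a ubiquitin-editing enzyme that shuts the upstream signal off. Several of these genes, Nfkbia and Tnfaip3 among them, are known NF-kappaB targets themselves.

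The regions on which the results below turn are printed first, in the forward strand of mouse build mm9 (NCBIM37), with matches to 6 motifs in capitals. The motifs were NF-kappaB, AP-1 (TGANTCA), PU.1 (GAGGAAGT), CEBP (TTGCNNAA), IRF (GAAANNGAA) and RUNX (TGTGGTT), on either strand. AP-1, PU.1, CEBP, IRF and RUNX are factor families of macrophages. Each line gives the gene, the distance from the nearest start site (negative is upstream) and the position. A letter match is a description and not evidence of binding. The first 4 regions are, for Nfkbia, Tnfaip3, Bcl3 and Nfkbiz, the one whose smaller rise of the 2 populations was the largest of its gene, among those that passed in both. The last passed a test for a different response in the 2 populations, a call that was lost in several alternative runs. The Tnfaip3 and Bcl3 regions hold 1 NF-kappaB match each, the Bcl3 region also 2 AP-1 matches, and the Nfkbia region 1 AP-1 and 1 CEBP match.
Nfkbia 26185 bp, chr12:56567369-56567529: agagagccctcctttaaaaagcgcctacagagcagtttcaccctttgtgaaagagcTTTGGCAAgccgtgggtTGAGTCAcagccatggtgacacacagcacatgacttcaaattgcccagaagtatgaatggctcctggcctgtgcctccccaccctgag
Tnfaip3 2445 bp, chr10:18729198-18729451: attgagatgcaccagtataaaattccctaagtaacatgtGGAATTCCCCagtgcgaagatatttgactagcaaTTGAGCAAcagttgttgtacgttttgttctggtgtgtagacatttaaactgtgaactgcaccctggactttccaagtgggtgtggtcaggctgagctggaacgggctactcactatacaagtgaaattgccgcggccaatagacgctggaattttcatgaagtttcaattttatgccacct
Bcl3 -1608 bp, chr7:20409612-20409812: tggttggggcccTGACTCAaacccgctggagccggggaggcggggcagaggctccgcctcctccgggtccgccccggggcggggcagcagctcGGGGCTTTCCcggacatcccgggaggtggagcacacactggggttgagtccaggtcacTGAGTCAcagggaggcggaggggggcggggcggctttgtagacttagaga
Nfkbiz 2646 bp, chr16:55836037-55836179: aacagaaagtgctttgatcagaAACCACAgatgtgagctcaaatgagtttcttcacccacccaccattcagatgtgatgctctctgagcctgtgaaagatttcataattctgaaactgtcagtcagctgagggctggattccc
Nfkbiz 23084 bp, chr16:55799065-55799270: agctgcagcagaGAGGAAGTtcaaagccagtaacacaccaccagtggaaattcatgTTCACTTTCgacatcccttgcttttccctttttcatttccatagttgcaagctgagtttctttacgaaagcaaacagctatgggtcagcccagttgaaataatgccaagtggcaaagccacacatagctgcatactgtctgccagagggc

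The next 4 regions were accessible almost only in CD45.1 cells of untreated mice. None of them holds an NF-kappaB match, which 3.35% of all peaks in untreated mice hold.
Nfkb1 -28583 bp, chr3:135383036-135383152: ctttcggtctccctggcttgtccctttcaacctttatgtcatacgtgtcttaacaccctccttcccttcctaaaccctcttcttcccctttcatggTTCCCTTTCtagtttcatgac
Nfkbiz -9405 bp, chr16:55848101-55848218: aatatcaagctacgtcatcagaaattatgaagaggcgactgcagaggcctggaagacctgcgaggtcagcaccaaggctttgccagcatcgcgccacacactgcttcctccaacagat
Nfkbiz 26582 bp, chr16:55795595-55795744: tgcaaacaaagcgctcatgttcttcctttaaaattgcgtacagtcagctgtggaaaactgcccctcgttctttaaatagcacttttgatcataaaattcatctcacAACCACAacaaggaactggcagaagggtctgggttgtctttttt
Tnfaip3 70314 bp, chr10:18661369-18661542: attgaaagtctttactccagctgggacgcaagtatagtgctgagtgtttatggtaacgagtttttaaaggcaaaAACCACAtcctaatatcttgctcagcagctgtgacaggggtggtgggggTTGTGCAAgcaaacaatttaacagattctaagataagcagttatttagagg

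The last 3 are the intronic Nfkb1 region and the Relb promoter, both more accessible in CD45.2 cells, and the Nfkbia promoter. The Nfkbia promoter rose after LPS in both populations, but did not pass under scaling by the total tags of each library. Only the part upstream of the start site is shown for the promoters. The Relb promoter holds 2 NF-kappaB matches and the Nfkbia promoter 1.
Nfkb1 78638 bp, chr3:135275805-135275942: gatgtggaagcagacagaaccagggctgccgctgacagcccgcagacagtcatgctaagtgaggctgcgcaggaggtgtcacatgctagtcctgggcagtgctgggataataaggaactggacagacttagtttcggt
Relb -46 bp, chr7:20214788-20214907: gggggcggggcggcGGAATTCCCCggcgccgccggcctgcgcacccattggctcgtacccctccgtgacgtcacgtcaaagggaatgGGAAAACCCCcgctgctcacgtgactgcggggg
Nfkbia -4 bp, chr12:56593635-56593771: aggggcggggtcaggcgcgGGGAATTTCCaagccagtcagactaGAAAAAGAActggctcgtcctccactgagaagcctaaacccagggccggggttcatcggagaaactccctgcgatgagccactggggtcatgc

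Each library held 8392878 to 9107770 tags in untreated mice and 2966364 to 6556594 after LPS. The share of tags in merged peaks was 18.4% in CD45.2 untreated mouse 4 and between 26.3% and 39.0% in the other libraries. At Sall1, which defines yolk sac-derived microglia, untreated CD45.2 cells averaged 1042 normalised tags and untreated CD45.1 cells 111, whereas P2ry12 averaged 265 and 268. The sum over 5 markers of graft-derived macrophages ranged from 849 to 894 in CD45.1 and from 360 to 392 in CD45.2 cells. Markers of neurons and glia (6 of 6 genes with a peak) summed to 173 to 242 in CD45.1 and 408 to 411 in CD45.2 cells of untreated mice. After LPS (5 of 6 genes) they summed to 55.7 to 82.1 and 127 to 194. Of 5 lymphocyte markers, 1, Ms4a1, had a peak that passed the count filter. It lay at 93.7 to 116 in CD45.1 and 27.1 to 35.6 in CD45.2 cells of untreated mice, and at 24.01 to 37.7 and 12.2 to 14.3 after LPS. Of 6 neutrophil markers, 3 had such a peak at rest and 5 after LPS, with sums that overlapped between the populations. The part of these other cells in the results was not tested. In such bulk profiles, fewer cells with an open region cannot be told apart from less opening per cell.

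The comparison of CD45.1 and CD45.2 cells of untreated mice asked whether engrafted cells settle to the same accessibility at these genes as host microglia. The peaks that differed lay mostly outside promoters, and 1 of 17 promoter peaks passed. The share among all promoter peaks was not counted, so it is not known whether this sets these genes apart. Of the 104 peaks, all of which were tested, 15 were higher in CD45.1 cells at an adjusted p under 0.05 (14.4%, against 8.54% of all 59170 peaks tested) and 2 were higher in CD45.2 cells (1.92%, against 6.32% of all). In 21 peaks every CD45.1 library lay above every CD45.2 library and in 11 below it (17.7% of all peaks in each direction). The median log2 fold change was 0.09 over the members and 0.00 over all peaks, where a positive value means higher in CD45.1 cells. Values are tags normalised by DESeq2 size factors, and p-values are DESeq2's with Benjamini-Hochberg adjustment over all peaks. Of the 15, 9 belonged to Nfkbiz, 3 to Tnfaip3, 2 to Nfkb1 and 1 to Nfkbia. None of the 8 peaks of Rela and Relb and none of the peaks of Nfkb2, Rel, Nfkbie or Bcl3 was higher in CD45.1 cells at this threshold. At an adjusted p under 0.01 and a change of more than 4-fold, 6 peaks were higher in CD45.1 cells (5.77%, against 3.78% of all) (2.65% of all were higher in CD45.2 cells).

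At Nfkbiz 9 of 24 peaks were higher in CD45.1 cells, and none of the others passed. Summed over its 24 peaks, the libraries held 1226, 1318 and 1204 normalised tags in CD45.1 cells of mice 4, 5 and 6 and 1006, 832 and 953 in CD45.2 cells, so that the groups did not overlap (log2 fold change 0.43, SE 0.09, adjusted p = 9.43e-05, DESeq2). It was the single locus of the 10 that passed, against 7.35% of all 16174 loci higher in CD45.1 and 7.46% in CD45.2 cells. Under scaling by total tags it did not pass (0.48, adjusted p = 0.983, DESeq2). The largest part lay 3′ of the gene, in intergenic DNA. The region at 23105 bp (chr16:55799043-55799250 in untreated mice) held 129.7, 128 and 112 tags in CD45.1 cells and 36.1, 31.0 and 48.7 in CD45.2 cells (log2 fold change 1.67, SE 0.24, adjusted p = 3.95e-10). Every CD45.1 library exceeded every CD45.2 library there. The region at 67529 bp held 56.9, 76.7 and 93.7 tags against 16.4, 23.2 and 23.5 (1.80, SE 0.31, adjusted p = 3.83e-07), again without overlap. The weaker region at 26582 bp held 23.3, 30.1 and 25.05 tags against 3.28, 3.10 and 4.87 (2.78, SE 0.59, adjusted p = 5.82e-05). The region at 123410 bp was open in both populations and differed less, with 127, 159 and 146 tags against 88.5, 65.8 and 91.7 (0.82, SE 0.20, adjusted p = 0.000578). Upstream, the region at -9405 bp lay in an intron of Fam55c. It had 26.1, 20.99 and 10.9 tags in CD45.1 cells and 0, 0.774 and 1.62 in CD45.2 cells, at least 6.00-fold higher when each CD45.2 library is set to 3 tags, the smallest count taken as detected. The region at 2660 bp, in an Nfkbiz intron, had 16.8, 15.5 and 22.9 tags against 6.55, 0 and 5.68 (2.31, SE 0.68, adjusted p = 0.00755). Leaving out mouse 4 or 6 of CD45.1 or mouse 5 of CD45.2 ended this call, with adjusted p up to 0.472 (DESeq2). The other 3 Nfkbiz regions, at 33089, 74757 and 158011 bp, had adjusted p-values of 0.0467, 0.049 and 0.0154, and each lost its call without at least 4 of the single libraries. Among the 3 Nfkbiz promoter peaks log2 fold changes lay between -0.16 and 0.08, and none passed.

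Nfkb1, the gene of a DNA-binding partner of Rela, had a region upstream that was nearly private to CD45.1 cells. At -28583 bp (intergenic, chr3:135383036-135383152) the libraries held 33.6, 31.0 and 49.0 tags in CD45.1 cells and 1.64, 0 and 1.62 in CD45.2 cells. This was at least 11.7-fold higher at the floor of 3 tags (adjusted p = 4.47e-07), and the peak was called in all 3 single-library lists of CD45.1 and in none of CD45.2. In an intron, the region at 4836 bp held 28.0, 27.4 and 21.8 tags against 3.28, 6.97 and 8.93 (log2 fold change 1.92, SE 0.51, adjusted p = 0.00232). The opposite held deeper in the gene. The intronic region at 78638 bp had 13.1, 14.6 and 10.9 tags in CD45.1 cells against 59.0, 45.7 and 45.4 in CD45.2 cells (-1.93, SE 0.37, adjusted p = 6.35e-06), and was called in the 3 single-library lists of CD45.2 and in none of CD45.1. The Nfkb1 promoter did not pass (-0.36, SE 0.17, adjusted p = 0.147), nor did the locus as a whole (696 ± 44.7 against 758 ± 16.4 tags, SD, n = 3 each, adjusted p = 0.513, DESeq2).

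Tnfaip3, the gene of the ubiquitin-editing enzyme, showed a pair of regions 3′ of the gene. At 70314 bp (chr10:18661369-18661542) CD45.1 cells had 25.2, 30.1 and 34.8 tags and CD45.2 cells 0, 1.548 and 0.812, at least 9.32-fold higher at the floor of 3 tags (adjusted p = 4.13e-06). At 68400 bp the values were 26.1, 29.2 and 28.3 against 6.55, 3.87 and 9.74 (log2 fold change 2.05, SE 0.50, adjusted p = 0.000756). In both regions every CD45.1 library lay above every CD45.2 library. Another region, at -38376 bp, was higher in CD45.1 cells by 0.89 (SE 0.30, adjusted p = 0.0246), but not without CD45.1 mouse 4 or 6 or CD45.2 mouse 5 or 6 (adjusted p 0.125 to 0.213, DESeq2). At Nfkbia, the gene of the classical inhibitor, 1 of 13 peaks passed. The region at 26906 bp had 19.6, 12.8 and 13.1 tags against 4.92, 1.548 and 6.49 (1.85, SE 0.67, adjusted p = 0.0401), and 5 of the 6 single libraries could each end the call (adjusted p up to 0.360).

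Relb was the other gene with a peak higher in host microglia, and here the promoter differed. At -46 bp it had 48.5, 41.1 and 45.7 tags in CD45.1 cells against 85.2, 68.1 and 68.2 in CD45.2 cells (log2 fold change -0.69, SE 0.25, adjusted p = 0.0407). The groups did not overlap, yet without any 1 library the call was lost (adjusted p 0.111 to 0.187, DESeq2). It was the single promoter peak of 17 that passed, a share that was not counted for the promoter peaks of all genes. In the others log2 fold changes lay between -0.36 and 0.20. The strongest peak of each gene, by mean tags, passed in none of the 10 genes, with adjusted p-values from 0.147 to 0.981. For example, the promoter of Rela, the main activating subunit, had 112 ± 9.43 and 103 ± 11.1 tags (SD, n = 3; adjusted p = 0.830, DESeq2). With the mouse as a block, which pairs the 2 populations by library number, 10 member peaks were higher in CD45.1 and 1, the Nfkb1 region at 78638 bp, in CD45.2 cells. Without any 1 library, 9 to 15 were higher in CD45.1 cells, with the fewest without CD45.1 mouse 4 or CD45.2 mouse 5.

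**Figure D1:**
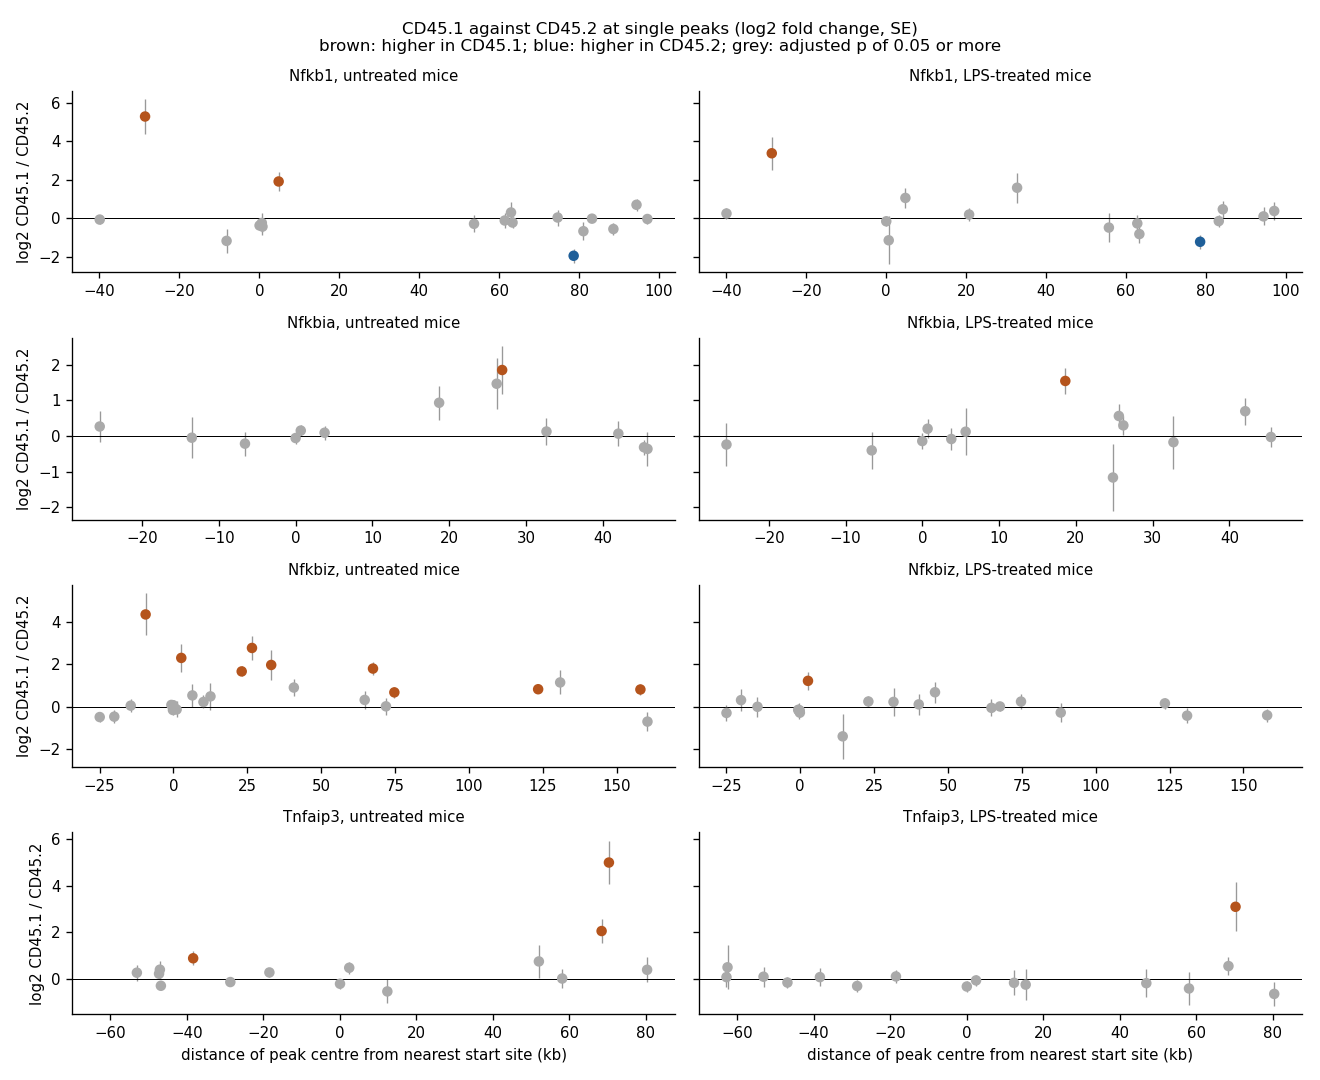
Log2 fold change of CD45.1 over CD45.2 (vertical axis, bars are SE) at each tested peak of Nfkb1, Nfkbia, Nfkbiz and Tnfaip3 against the distance of the peak centre from the nearest start site in kb, in untreated (left) and LPS-treated mice (right). Brown points were higher in CD45.1, blue points higher in CD45.2 cells at an adjusted p under 0.05. Of the Nfkbiz peaks, 9 are brown in untreated mice and 1 after LPS.

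After LPS the same comparison gave fewer differences, in libraries with fewer tags. Of 100 peaks, 92 passed the count filter (more than 10 tags in at least 1 library) and were tested. The 8 that failed belonged to Nfkb1 (4), Nfkbiz (2), Nfkb2 and Tnfaip3 (1 each), and none of them exceeded 10 tags in either population. Of those tested, 4 were higher in CD45.1 cells (4.35%, against 4.08% of all 49180) and 2 in CD45.2 cells (against 2.38%), shares near those of all peaks. The median log2 fold change was -0.06 over the members and -0.01 over all. The Nfkb1 region at -28594 bp had 14.6, 13.05 and 16.98 tags in CD45.1 cells of mice 1, 2 and 3 and 1.75, 0 and 2.37 in CD45.2 cells (3.38, SE 0.87, adjusted p = 0.00349; 0.078 without CD45.2 mouse 2). It was the single member peak past 4-fold at an adjusted p under 0.01 (1.78% of all peaks). The region overlaps the one at -28583 bp in untreated mice. At Nfkbia the region at 18624 bp (chr12:56574884-56575137) had 43.7, 47.0 and 40.6 tags against 21.02, 10.5 and 15.4 (1.54, SE 0.37, adjusted p = 0.00165; 0.0819 without CD45.2 mouse 2). All CD45.1 libraries exceeded all CD45.2 libraries there. The Nfkbiz intron region at 2646 bp had 32.3, 31.3 and 28.3 tags against 10.5, 12.2 and 15.4 (1.22, SE 0.41, adjusted p = 0.0487). The Tnfaip3 region at 70280 bp had 4.85, 19.6 and 5.66 tags against 0, 1.74 and 1.19 (at least 3.12-fold higher at the floor of 3 tags, adjusted p = 0.0491). Without CD45.1 mouse 2, which had most of its tags, this region no longer passed the count filter.

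Both regions that were higher in host microglia at rest were so after LPS as well. The Nfkb1 intron region, at 78567 bp, had 15.4, 16.96 and 27.4 tags in CD45.1 cells against 47.3, 43.6 and 47.5 in CD45.2 cells (-1.21, SE 0.35, adjusted p = 0.014). The Relb promoter had 22.6, 33.9 and 22.6 tags in CD45.1 cells against 57.8, 47.1 and 51.7 in CD45.2 cells (-0.996, SE 0.32, adjusted p = 0.0334). The groups did not overlap in either region. These calls were not firm. With the mouse as a block 2 member peaks were higher in CD45.1 cells, those of Nfkb1 and Nfkbia, and 0 in CD45.2 cells. Without any 1 library 0 to 2 were higher in CD45.1 and 0 to 1 in CD45.2 cells, with 0 and 0 without CD45.2 mouse 2. The 2 treatments were compared in different tables, so that fewer calls after LPS do not show that the difference between the populations had shrunk. At the level of loci none of the 10 passed by DESeq2 or edgeR, and 1 had an unadjusted p under 0.05 (4.08% of all 15722 loci were higher in CD45.1 and 2.98% in CD45.2 cells). Relb had the smallest p (147 ± 18.04 against 199.5 ± 36.4 tags, SD, n = 3; log2 fold change -0.42, SE 0.19, adjusted p = 0.218, DESeq2). Nfkbiz, which differed at rest, had 821 ± 23.96 against 844 ± 127 tags (-0.03, SE 0.14).

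The LPS response was then measured within each population, at regions found in both tables. Peaks were matched where they overlapped by at least 50% of both widths, which gave 39390 pairs, 66 of them at member genes (38 member peaks in untreated and 34 in LPS-treated mice had no partner). Untreated and LPS-treated cells came from different mice and their peaks were merged separately, with a median width of 132 bp and 167 bp, so that treatment, table and width cannot be told apart. All 66 pairs were tested in a model of the 12 libraries.

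The loci of Nfkbiz, Bcl3 and Nfkbia rose after LPS in both populations, and those of Tnfaip3 and Relb passed in CD45.2 cells. Summed over matched peaks, Nfkbiz had 649.7, 688 and 588 normalised tags in CD45.1 cells of mice 4, 5 and 6 and 903, 943 and 865 in those of mice 1, 2 and 3 (log2 fold change 0.49, SE 0.12, adjusted p = 0.00083). In CD45.2 cells it had 559, 448 and 514 without and 1072, 904 and 788 with LPS (0.86, SE 0.12, adjusted p = 1.07e-09). No LPS library of either population fell within the range of its untreated group. Bcl3 rose from 347, 308 and 356 to 453, 514 and 482 tags in CD45.1 (0.52, SE 0.11, adjusted p = 9.62e-05) and from 313, 279.9 and 311 to 417, 438 and 426 in CD45.2 cells (0.51, SE 0.11, adjusted p = 0.000244). Nfkbia rose from 451, 477 and 434 to 684, 682 and 483 in CD45.1 (0.44, SE 0.12, adjusted p = 0.00369) and from 479.9, 457 and 449.6 to 569, 619.5 and 580.3 in CD45.2 cells (0.36, SE 0.13, adjusted p = 0.0341). For Nfkbia in CD45.2 cells, leaving out any of 7 single libraries ended the call, with adjusted p up to 0.173 without CD45.2 LPS mouse 2. Tnfaip3 had 316, 263 and 286 tags in CD45.2 cells without and 434, 443 and 400.3 with LPS (0.57, SE 0.12, adjusted p = 0.000143). Relb had 184, 178 and 163 without and 346, 274 and 247 with LPS (0.70, SE 0.15, adjusted p = 7.27e-05). In CD45.1 cells Tnfaip3 changed by 0.28 (SE 0.12, adjusted p = 0.0641) and Relb by 0.36 (SE 0.15, adjusted p = 0.0558). Where only pairs with widths within 25% of each other were kept, the Relb rise in CD45.2 cells was 0.01 (adjusted p = 0.995) and those of Nfkbia were 0.24 in CD45.1 and 0.14 in CD45.2 cells (adjusted p = 0.235 and 0.625, DESeq2).

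Among the other subunits, Nfkb2 fell in CD45.1 cells, from 171, 183 and 193 to 163, 108 and 121 tags (-0.46, SE 0.16, adjusted p = 0.0223), and had 169.6 ± 9.88 and 169 ± 18.3 tags in CD45.2 cells without and with LPS (SD, n = 3). The fall was lost without CD45.1 mouse 5, 6, 2 or 3 (adjusted p 0.062 to 0.154, DESeq2), and with widths within 25% (adjusted p = 0.0639). Nfkb1, Rel, Rela and the inhibitor Nfkbie did not pass in either population. In the order of the 4 groups, CD45.1 untreated, CD45.1 LPS, CD45.2 untreated and CD45.2 LPS, Nfkb1 had means of 378, 356, 367 and 347 tags with SDs of 7.15 to 63.7, so that all groups lay within their spread. Rel had 242, 266, 215 and 219 tags and Rela 181, 142, 180.3 and 168. Nfkbie, with a single matched peak, had 82.4, 67.7, 86.3 and 81.6. In all, 3 of 10 loci rose and 1 fell in CD45.1 cells (15.6% and 11.9% of all 14676 loci), and 5 rose and none fell in CD45.2 cells (10.4% and 4.98%). Under scaling by the total tags of each library, no member locus passed in either population, where 323 loci rose in CD45.1 and 208 in CD45.2 cells among all. That scaling moved the median of all loci in CD45.2 cells to -0.11, and the direction of the called member loci did not change.

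**Figure D2:**
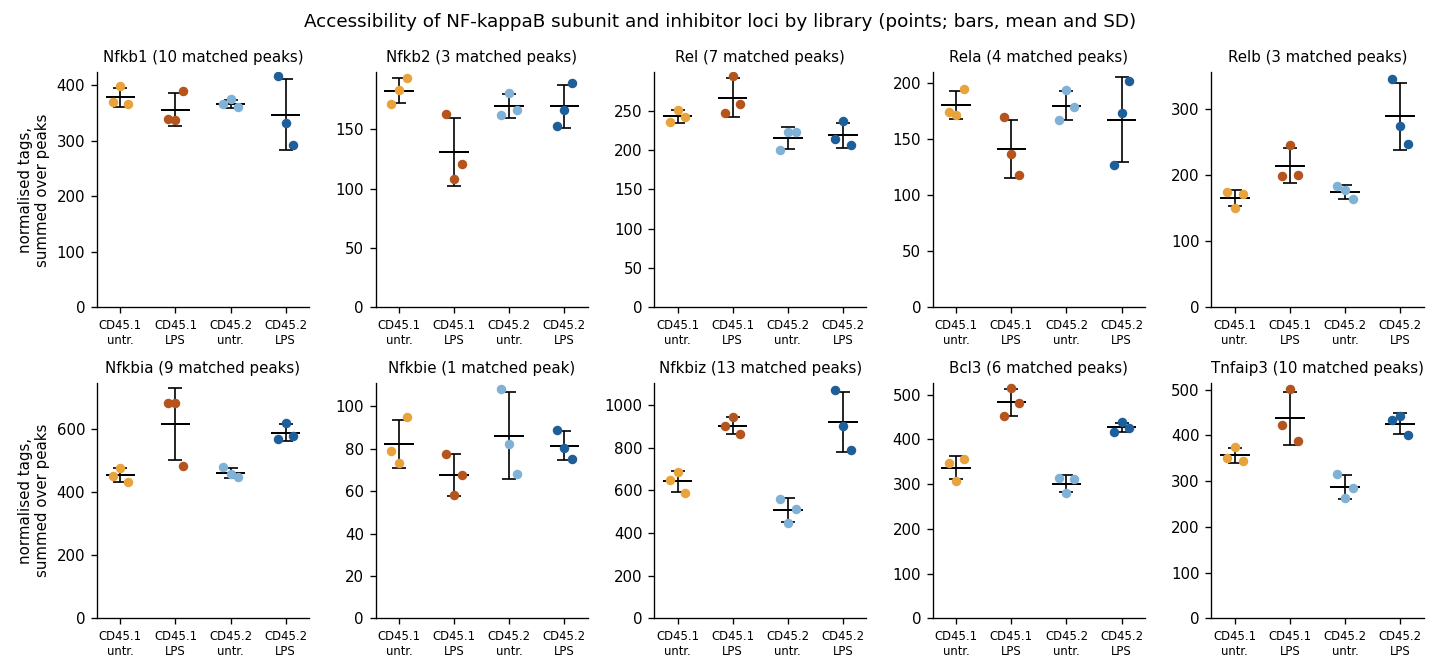
Normalised tags summed over matched peaks of each gene (vertical axis, from 0) in the 12 libraries, by population and treatment. Points are libraries, horizontal bars the mean and whiskers the SD of 3 libraries. The LPS groups of Nfkbiz and Bcl3 lie above the untreated groups in both populations, and those of Nfkb1 overlap them.

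Of 66 matched member peaks, 14 rose and 1 fell in CD45.1 cells (21.2% and 1.52%, against 12.4% and 7.29% of all 39235 tested) and 20 rose and 1 fell in CD45.2 cells (30.3% and 1.52%, against 11.6% and 4.98%). In 13 the rise passed in both populations, against 7.80% of all pairs. Every LPS library of CD45.1 lay above the untreated ones in 22 pairs and below them in 9 (20.5% and 19.8% of all), and of CD45.2 in 23 and 4 pairs (19.7% and 18.5%). The median log2 response of the members came to 0.08 in CD45.1 cells and to 0.34 in CD45.2 cells, and of all peaks 0.00 and -0.01.

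The largest response lay 3′ of Nfkbia, at 26194 bp in untreated and 26185 bp in LPS-treated mice (chr12:56567369-56567529). This intergenic region was almost closed at rest, with 13.7, 4.29 and 7.88 tags in CD45.1 cells against 2.18, 1.58 and 5.49 in CD45.2 cells. After LPS it had 85.6, 111 and 83.9 tags in CD45.1 (log2 fold change 3.42, SE 0.33, adjusted p = 1.46e-21) and 60.5, 78.3 and 80.5 in CD45.2 cells (4.53, SE 0.45, adjusted p = 6.9e-21). It ranked 34th among the responses of all 39235 peaks in CD45.1 and 58th in CD45.2 cells. The promoter, 11 bp from the start site, was open without LPS at 101, 96.1 and 105 tags in CD45.1 cells against 122, 100.1 and 100.0 in CD45.2 cells. With LPS it had 178, 161 and 130.1 (0.64, SE 0.17, adjusted p = 0.00268) and 154, 192 and 165 tags (0.69, SE 0.17, adjusted p = 0.000827). Under scaling by total tags neither rise of the promoter passed (0.60 and 0.57, adjusted p = 0.188 and 0.226, DESeq2). Its peak was 208 bp wide in untreated and 266 bp in LPS-treated mice, and the rule of similar widths did not keep it. A further region, at 42037 bp, rose in CD45.1 cells from 21.2, 21.4 and 19.3 to 41.0, 54.4 and 42.0 tags (1.13, SE 0.30, adjusted p = 0.00268). In CD45.2 cells it had 15.2, 19.5 and 24.2 without and 30.3, 31.6 and 22.8 with LPS (0.45, SE 0.33, adjusted p = 0.376).

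Of 13 matched Nfkbiz regions, 6 rose in CD45.1 and 8 in CD45.2 cells, both start sites included. The upstream promoter, at -161 bp, went from 46.1, 45.9 and 48.7 to 122, 81.6 and 115 tags in CD45.1 (1.198, SE 0.22, adjusted p = 1.97e-06) and from 62.0, 50.1 and 49.5 to 159, 98.6 and 110.3 in CD45.2 cells (1.16, SE 0.21, adjusted p = 2.27e-06). The regions at -683 and -63 bp, the latter at a start site inside the gene, rose by 0.86 and 0.51 in CD45.1 and by 1.05 and 0.81 in CD45.2 cells. The CD45.1 call at -63 bp (adjusted p = 0.0266, DESeq2) passed in 7 of 12 runs that left out 1 library. Under scaling by total tags neither region passed in either population. The intron region at 2660 bp had the steepest rise, from 11.2, 10.4 and 15.0 to 46.9, 46.6 and 42.0 tags (1.89, SE 0.37, adjusted p = 9.8e-06) in CD45.1 and from 4.35, 0 and 3.85 to 15.1, 17.7 and 22.8 (2.99, SE 0.56, adjusted p = 3.52e-06) in CD45.2 cells. Engrafted cells had more tags than host microglia there in both states. The distal regions at 64723 and 123410 bp also rose in both populations, by 1.03 and 0.60 in CD45.1 and by 1.40 and 1.22 in CD45.2 cells. The 2 CD45.1 calls (adjusted p = 0.0281 and 0.0253, DESeq2) each passed in 8 of 12 runs that left out 1 library, and neither passed under scaling by total tags.

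Tnfaip3 had an intronic region at 2423 bp that passed in both populations. It rose from 45.4, 38.0 and 48.7 to 113, 146 and 104 tags in CD45.1 (1.44, SE 0.21, adjusted p = 8.48e-10) and from 39.2, 30.04 and 28.6 to 121, 134 and 115 in CD45.2 cells (1.95, SE 0.22, adjusted p = 2.24e-16). The LPS groups of both populations overlapped. The distal region at 68400 bp rose from 17.4, 19.6 and 18.6 to 50.4, 38.9 and 37.8 in CD45.1 (1.204, SE 0.33, adjusted p = 0.00286) and from 4.35, 2.63 and 6.59 to 25.2, 34.1 and 26.3 in CD45.2 cells (2.67, SE 0.44, adjusted p = 8.13e-08). At Bcl3 the region at -1595 bp rose from 31.7, 22.7 and 35.8 to 86.7, 77.7 and 97.9 tags in CD45.1 (1.554, SE 0.24, adjusted p = 1.66e-08) and from 28.3, 21.1 and 30.2 to 65.6, 73.3 and 73.5 in CD45.2 cells (1.44, SE 0.25, adjusted p = 6.18e-07). The strongest Bcl3 region, at -8198 bp, rose by 0.57 in CD45.1 and 0.64 in CD45.2 cells (adjusted p = 0.0303 and 0.0214, DESeq2). These 2 calls passed in 8 and 9 of 12 runs that left out 1 library, and neither passed under scaling by total tags. In CD45.2 cells 4 further regions passed: Bcl3 at 5127 bp (0.55), Tnfaip3 at -38376 bp (0.99), Nfkb1 at 4836 bp (1.549, SE 0.51) and Nfkbiz at 158011 bp (1.16, SE 0.28). In CD45.1 cells these changed by 0.40, 0.19, 0.72 and -0.02 without passing. The Bcl3 call was lost without any of 10 of the 12 libraries, that of Tnfaip3 without any of 4 and that of Nfkb1 without CD45.2 untreated mouse 4 or 5 or CD45.2 LPS mouse 3 (adjusted p up to 0.191, 0.187 and 0.328, DESeq2).

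The subunit genes contributed few of the rises. In Relb the region at 687 bp, in an intron, rose in CD45.2 cells from 115, 99.1 and 92.3 to 247, 187 and 152 tags (0.91, SE 0.19, adjusted p = 3.21e-05) and had 128, 102 and 126 without and 150.0, 190.5 and 145 with LPS in CD45.1 cells (0.44, SE 0.19, adjusted p = 0.0785). The Relb promoter had 56.6, 46.4 and 46.2 tags without and 83.2, 68.2 and 76.1 with LPS in CD45.2 cells (0.61, SE 0.23, adjusted p = 0.05), at the threshold. A region 3′ of Rela, at 12164 bp, rose in both (0.91 in CD45.1 and 0.86 in CD45.2 cells), whereas the Rela promoter fell in CD45.1 cells from 75.9, 68.0 and 78.8 to 56.3, 42.8 and 39.2 tags (-0.67, SE 0.24, adjusted p = 0.0319). It had 67.5, 78.0 and 62.6 without and 45.4, 53.1 and 70.02 with LPS in CD45.2 cells (-0.25, SE 0.23, adjusted p = 0.503). Upstream of Rel, the region at -50893 bp rose (0.91, SE 0.28, adjusted p = 0.0119) and that at -50166 bp fell (-1.33, SE 0.46, adjusted p = 0.0261) in CD45.2 cells. Neither passed in CD45.1 cells (adjusted p = 0.0706 and 0.217, DESeq2). Each of these Rela and Rel calls was lost without at least 3 of the single libraries. The Nfkb1 region at -28583 bp did not pass in either population, with 22.4, 20.8 and 32.2 tags without and 21.1, 19.4 and 25.2 with LPS in CD45.1 cells (-0.19, SE 0.42, adjusted p = 0.798).

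Under scaling by total tags, 6 member peaks rose in CD45.1 and 11 in CD45.2 cells, and none fell. The calls that passed under it included the regions of Nfkbia at 26194 bp, Tnfaip3 at 2423 bp, Bcl3 at -1595 bp and Nfkbiz at -161 bp and 2660 bp in both populations. Over all matched peaks it moved the median response in CD45.2 cells to -0.15. Of the 15 and 21 calls, 8 and 13 passed without any 1 library.

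**Figure D3:**
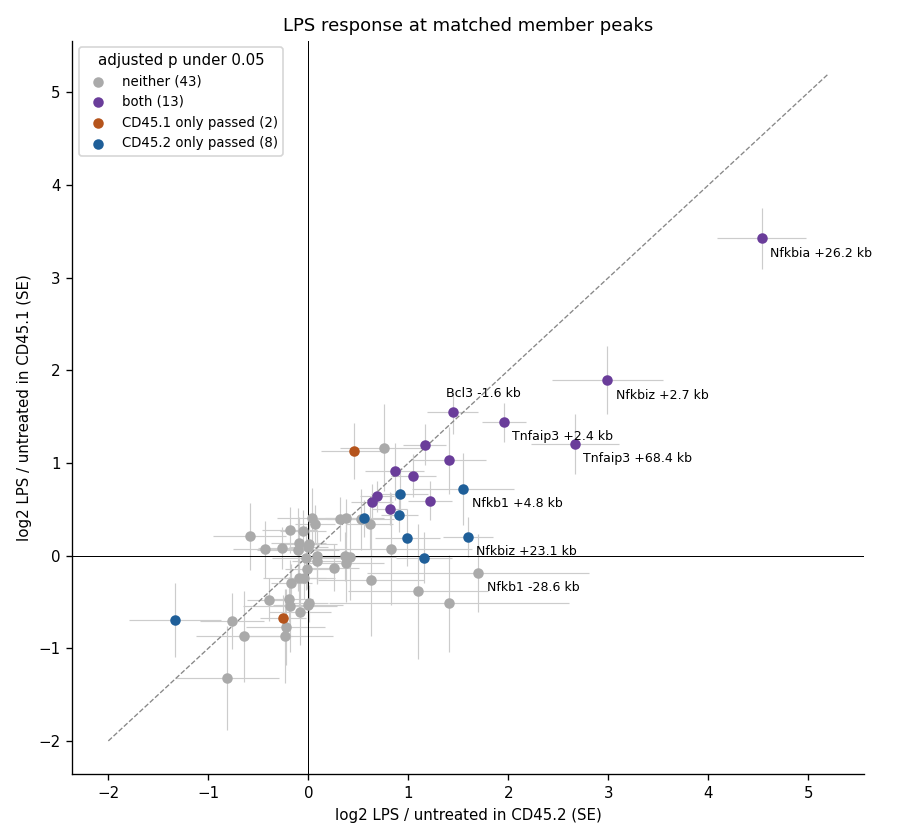
Log2 fold change of LPS over untreated at the 66 matched member peaks in CD45.1 (vertical axis) against CD45.2 cells (horizontal axis), with SE bars and the line of equality. Colours give the population in which the adjusted p was under 0.05. The Nfkbia region at 26194 bp lies far from the rest in both populations.

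Whether the 2 populations responded differently was tested as the interaction of population and treatment. Of the 66 pairs 1 passed (1.52%, against 0.227% of all with a smaller and 0.0178% with a larger response in CD45.1 cells). It was the Nfkbiz region at 23105 bp. In CD45.1 cells it had 86.5, 85.7 and 73.8 tags without and 110.2, 87.5 and 83.9 with LPS (0.20, SE 0.22, adjusted p = 0.551). In CD45.2 cells it had 23.9, 21.1 and 32.97 without and 75.7, 64.4 and 94.5 with LPS (1.60, SE 0.25, adjusted p = 8.34e-09). The difference of the responses was -1.39 (SE 0.33, adjusted p = 0.0101), and after LPS the 2 populations overlapped. The call was lost with the mouse as a block (-1.41, adjusted p = 0.203), under scaling by total tags (-1.27, adjusted p = 1) and without CD45.1 untreated mouse 4, CD45.1 LPS mouse 2 or 3, CD45.2 untreated mouse 5 or CD45.2 LPS mouse 3 (adjusted p 0.0594 to 0.2505, DESeq2). Next by size of p were the Nfkbiz region at 158011 bp (-1.18, SE 0.39, adjusted p = 0.275) and the Tnfaip3 region at 68400 bp (-1.46, SE 0.55, adjusted p = 0.465). In each the response was larger in host microglia and the tags at rest were lower. The comparison at rest and the response of CD45.2 cells share the untreated CD45.2 libraries, so the pairs of values are not independent. No locus passed by DESeq2 or edgeR (0.150% of all with a smaller and 0.0409% with a larger response in CD45.1 cells), and 2 had an unadjusted p under 0.05. The largest differences were -0.47 (SE 0.23, adjusted p = 0.725) for Nfkb2 and -0.36 (SE 0.17, adjusted p = 0.728) for Nfkbiz. For Relb the difference was -0.34 (SE 0.21) and for Tnfaip3 -0.28 (SE 0.17), each with an interval of about 2 SE that includes 0.

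**Figure D4:**
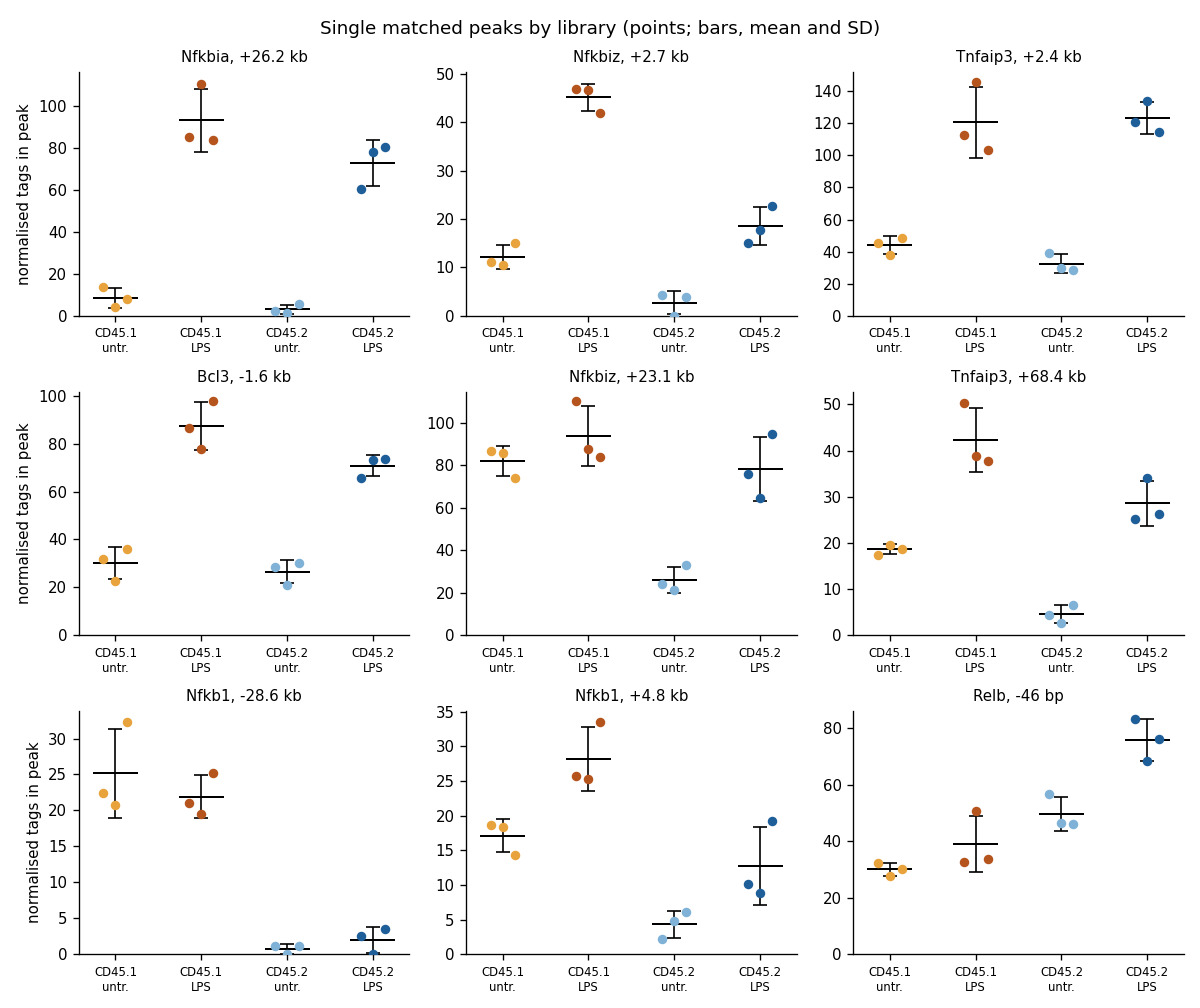
Normalised tags (vertical axis, from 0) in the 12 libraries at 9 matched regions, titled by gene and distance from the nearest start site. Points are libraries, horizontal bars the mean and whiskers the SD of 3 libraries. The Nfkbiz region at 23105 bp has 64.4 to 94.5 tags in CD45.2 cells after LPS against 21.1 to 32.97 without, while the CD45.1 groups overlap.

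The lists of peaks called in single libraries hold presence without counts. Of the 104 peaks in untreated mice, 54 overlapped a peak in all 6 lists by at least 1 base (51.9%, against 46.0% of all peaks). Another 13 did so only in lists of CD45.1 (12.5%, against 9.80% of all) and 8 only in lists of CD45.2 cells (7.69%, against 11.5%). In 7 all 3 CD45.1 lists and no CD45.2 list had the peak (6.73%, against 3.69% of all). Among them were the Nfkb1 region at -28583 bp and the Nfkbiz regions at -9405 and 26582 bp. Each of the 7 was also higher in CD45.1 cells by the counts. The lists and the counts come from the same libraries, so the lists are no separate support for the counts. In 2 all 3 CD45.2 lists and no CD45.1 list had it (1.92%, against 2.34%), the Nfkb1 region at 78638 bp and an Nfkbiz region at 160401 bp that did not pass by the counts (-0.71, adjusted p = 0.359, DESeq2). The Nfkbiz regions at 23105, 67529 and 123410 bp, higher in CD45.1 cells by the counts, were in all 6 lists. After LPS, 47 of 100 overlapped a peak in all 6 lists (against 32.4% of all), 16 only in CD45.1 (against 16.4%) and 9 only in CD45.2 lists (against 17.9%). Where 50% of the peak had to be covered, 42 peaks in untreated mice and 7 after LPS were in all 6 lists.

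Member peaks held the NF-kappaB motif more often than peaks at large. Within 200 bp around the centre it occurred in 19 of 104 member peaks in untreated mice (18.3%, against 3.35% of all 60288) and in 24 of 100 after LPS (24%, against 4.32% of all 54953). The other motifs were closer to their background. CEBP occurred in 16.3% of member peaks against 9.82% of all in untreated mice and in 20 of 100 against 12.2% after LPS, and AP-1 in 7.69% against 8.11% and in 14% against 13.4%. PU.1 occurred in 13.5% against 9.45% and in 10 of 100 against 8.72%, IRF in 11.5% against 8.33% and in 7% against 7.54%, and RUNX in 4.81% against 5.65% and in 4% against 5.82%. No test was run on these shares, since several member peaks share a promoter or enhancer cluster. Of the 21 matched member peaks that rose after LPS in either population, 6 held the NF-kappaB motif (28.6%, against 5.58% of 6342 such peaks among all), and of the 45 others 10 (22.2%, against 3.40% of 32893). The 5 printed matches that lie in LPS-induced or promoter regions are those of Tnfaip3 at 2445 bp, Bcl3 at -1608 bp, the Nfkbia promoter and, with 2 matches, the Relb promoter. Of the 15 peaks higher in CD45.1 cells at rest, 0 held the NF-kappaB motif, 1 AP-1, 2 each PU.1, CEBP and IRF, and 4 RUNX. Of the 4 higher in CD45.1 cells after LPS, 0 held the NF-kappaB, AP-1 or PU.1 motif, 1 each CEBP and IRF, and 2 RUNX. The shares among all peaks higher in CD45.1 cells were not counted. With so few peaks, these counts cannot show that any motif is preferred or missing.

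**Figure D5:**
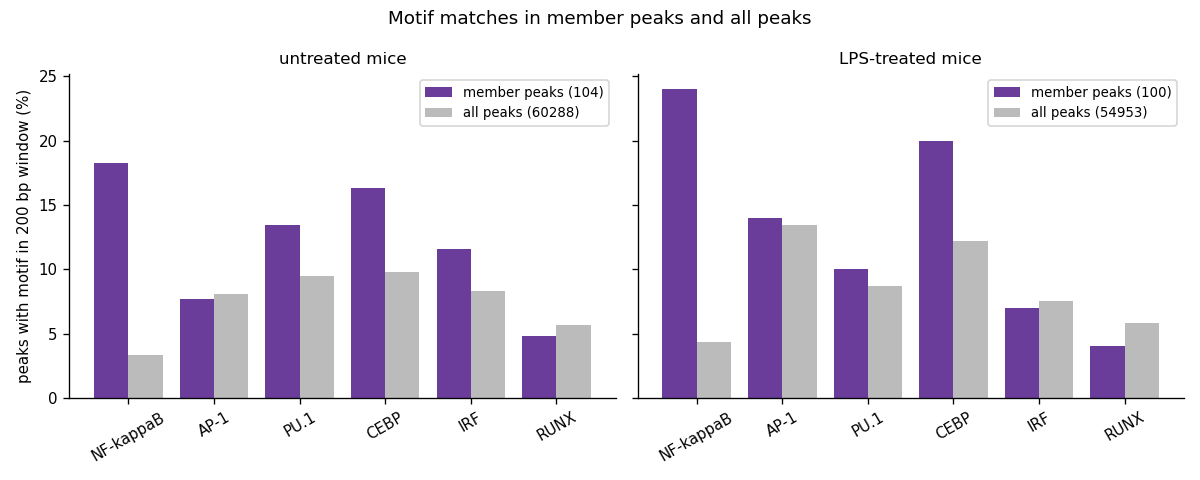
Share of peaks with a motif match in a 200 bp window around the peak centre, in percent (bars from 0), for the member peaks (purple) and all peaks (grey) in untreated and LPS-treated mice. The NF-kappaB bars of the members reach 18.3% and 24%, against 3.35% and 4.32% for all peaks.

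Of 30 other genes of the pathway, 1 locus differed between the populations, and did so in both states. Tnip3, whose product binds the Tnfaip3 enzyme, had 339 ± 16.4 tags in CD45.1 cells against 232 ± 25.1 in CD45.2 cells of untreated mice (SD, n = 3; log2 fold change 0.55, SE 0.13, adjusted p = 0.000466, DESeq2). After LPS it had 208 ± 45.0 and 113 ± 21.5 (0.90, SE 0.21, adjusted p = 0.000665, DESeq2), among 29 tested. Over all loci, 7.35% passed as higher in CD45.1 and 7.46% as higher in CD45.2 cells at rest. With LPS these shares were 4.08% and 2.98%. The pathway genes were thus not called more often than loci at large in either state. After LPS 5 of 30 rose and 5 fell in CD45.1 cells, against 15.6% and 11.9% of all loci. In CD45.2 cells 3 of 30 rose and 3 fell, against 10.4% and 4.98% of all loci, so that the shares of rises were near those of all loci. Among those that fell in CD45.1 cells were Tnip2 (-0.75), Rbck1, a subunit of the linear ubiquitin ligase (-0.81), Map3k14, the kinase of the non-canonical branch (-0.59) and Nfkbil1 (-0.83). In CD45.2 cells Map3k14 fell (-0.47), and Otud7b (0.78), Birc3, a ubiquitin ligase (0.61), and Nfkbib, another inhibitor (0.42), rose. Birc3 rose in CD45.1 cells as well (0.65, adjusted p = 0.00846, DESeq2), and Rbck1 fell in CD45.2 cells as well (-0.54, adjusted p = 0.0281, DESeq2). Map3k14, Birc3 and Rbck1 thus passed in both populations. For the other named genes, a pass in 1 population alone does not show whether the responses differed. Nfkbil1, for example, changed by 0.06 in CD45.2 cells without passing. No interaction passed, and 1 of 30 had an unadjusted p under 0.05.

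Over the 12 libraries, the gene whose summed matched peaks followed a member most closely was Tmem65 for Bcl3 (Pearson r = 0.988), 4930529L06Rik for Nfkbiz (0.974), Ppp6r3 for Rela (0.972), Mllt11 for Nfkb2 (0.970), Ptbp3 for Relb (0.959), Plekhg2 for Tnfaip3 (0.956), Ell for Nfkbia (0.945), Gm13749 for Rel (0.942), Pdcd1 for Nfkb1 (0.906) and Snap23 for Nfkbie (0.878). Each is the highest value over all loci with matched peaks, on log2 tags in libraries that share depth and treatment, and they describe likeness in level only.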

How the data were processed

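The members, gene lists and motifs were chosen with earlier results of these data known. Brain macrophages were profiled by ATAC-seq in 12 libraries, 3 per group. The submitters' processing notes name bcl2fastq 2.17.1.14, Bowtie2, Picard 1.108 and HOMER and the build mm9, and the study's methods give HOMER for peak finding and annotation. The deposited estimated counts are HOMER tags per merged peak, in one table for untreated and one for LPS-treated mice, in steps of 0.5. They are not normalised. The deposited peak score of each library's list was used only to read peak positions.

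Peaks with more than 10 tags in at least 1 library were kept, rounded and tested with DESeq2 1.42.0 (R 4.3.3), as in the study, on the 6 libraries of a treatment. Loci are sums of a gene's peaks. The LPS response and its interaction with population were fitted to 12 libraries at peaks matched by 50% reciprocal overlap. Calls are at an adjusted p under 0.05. The 2 populations of a mouse came from the same brain, which pairs them; their deviations from group means correlated by 0.141, 0.059 and 0.081 in untreated mice and -0.20, 0.07 and 0.07 after LPS. Fold bounds set each library below 3 tags to 3 tags. The named peaks are those called and the strongest peak of each gene. Of the pathway genes, at most 5 per comparison with the smallest adjusted p were named, besides Birc3 and Rbck1, each given in both populations. The values of 1 pathway gene are not reported here. Printed regions and those plotted singly were chosen after their values were seen. edgeR 4.0.16 with TMM, total-tag scaling, other filters, the mouse as a block, other matching rules and leaving out each library were tried as alternatives. Scripts were tested on simulated data. Columns of other samples numbered 0.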

Additional observations from a re-analysis of the deposited data

Results flagged for a closer look

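The LPS response of the Nfkbiz region at 23105 bp differed between the populations by a test of the difference itself. The difference in log2 response, CD45.1 minus CD45.2, was -1.3948 (DESeq2, adjusted p = 0.0101). The tags lay between 21.1 and 32.97 in untreated and 64.4 and 94.5 in LPS-treated CD45.2 cells, and between 73.8 and 86.5 and 83.9 and 110.2 in CD45.1 cells. The call was lost with the mouse as a block and under scaling by total tags. It was also lost without CD45.1 untreated mouse 4, CD45.1 LPS mouse 2 or 3, CD45.2 untreated mouse 5 or CD45.2 LPS mouse 3.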

How the results depend on the processing

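No called peak or locus changed its direction under any alternative run. At rest, 15 member peaks were higher in CD45.1 cells and 2 in CD45.2 cells. Total-tag scaling gave 9 and 1, and a mean count of at least 20 gave 5 in CD45.1. The mouse as a replicate block kept 11 of these 17 calls, 1 of them in CD45.2 and the rest in CD45.1. Leaving out 1 library gave 9 to 15 and 1. Past 4-fold, 6 became 0 at a mean count of at least 20 and 4 to 6 without 1 library. After LPS, the 4 higher in CD45.1 became 2 without a filter, 1 at a mean count of at least 20, 2 with the block and 0 to 2 without 1 library. The 2 higher in CD45.2 became 0 with total tags, 0 with the block and 0 to 1 without 1 library. The 1 past 4-fold became 0 at a mean count of at least 20, with the block or without 1 library. For the LPS response in CD45.1, 14 rises became 6 with total tags, 22 with 25% matching, 8 with similar widths and 9 to 15 without 1 library. The 1 fall became 4 with edgeR, 0 with total tags, 2 at a mean count of at least 20, 2 with 25% matching, 0 with similar widths and 0 to 5 without 1 library. In CD45.2, 20 rises became 11 with total tags, 8 with similar widths and 14 to 20 without 1 library, and the 1 fall 2 with edgeR, 0 with total tags or similar widths and 0 to 1 without 1 library. The 1 interaction became 0 with total tags or the block, 2 with 25% matching and 0 to 1 without 1 library. For loci, total tags left 0 calls. With 25% matching 5 rose in CD45.1, with similar widths 0 fell there and 3 rose in CD45.2, and without 1 library 3 to 4 rose and 0 to 2 fell in CD45.1 and 4 to 5 rose in CD45.2. Peaks in all 6 lists after LPS fell from 47 to 7 when 50% of the peak had to be covered. Similar widths left fewer pairs, and for the other changes the cause was not tested. Libraries after LPS were shallower, which limits what could be detected there.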
